A study of Mus musculus with 34 samples.

Results

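The 9 genes described here, Tmem119, P2ry12, P2ry13, Cx3cr1, Sall1, Siglech, Gpr34, Olfml3 and Selplg, are the ones by which resting ("homeostatic") microglia of the mouse brain are usually recognised. They were taken by symbol from the 23951 genes of the deposited expression files, and all 9 were found once in every file. Hippocampal RNA came from 20 mice of 4 groups, with 1 library per mouse. Control mice (n = 4) carried the floxed Hdac1 alleles (Hdac1f/f) alone. Hdac1 cKO mice (n = 5) carried the same alleles together with Nestin-Cre, which acts in the neural lineage, so that HDAC1 is lost from neurons and astrocytes while microglia keep it. 5XFAD mice (n = 6) carried the 5XFAD transgenes, mutated human APP among them, under the neuronal Thy1 promoter, and compound mice (Hdac1 cKO; 5XFAD, n = 5) carried both the deletion and the transgenes. The labels put control and Hdac1 cKO mice at 13 to 14 months and the other groups at 13 months, and the study's aged mice were male. Libraries of GFAP+ cortical nuclei (3 control, 4 Hdac1 cKO) are used only for a side-by-side reading at the end.

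Microglia are the resident macrophages of the brain. In the healthy tissue they hold a characteristic gene program that depends on transforming growth factor beta signalling and on the transcription factor Sall1, and that equips them with surface receptors for nucleotides, chemokines, lipids and sialic acids. Near amyloid plaques microglia multiply and take on another program, led by genes such as Trem2, Tyrobp and Cst7, in which homeostatic genes are known to be reduced per cell. In RNA from whole tissue, fewer cells of a type and less RNA per cell cannot be told apart, so each gene below is given first as its level in the tissue and then relative to 19 genes that microglia express in either state, the general microglia list.

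Values are FPKM, the fragments of a gene scaled to the length of its transcript and to the depth of the library. Sums over all genes lay between 725060 and 881139 FPKM per mouse, and the relative sequencing depth, read from the smallest steps between values, ran from 0.754 to 2.35. The targeted gene followed the labels. Hdac1 was 7.93 ± 2.20 FPKM (SD, n = 4) in control mice, 2.74 ± 0.28 (n = 5) in Hdac1 cKO mice, 8.23 ± 1.56 (n = 6) in 5XFAD mice and 1.92 ± 0.52 (n = 5) in compound mice. Thy1, whose promoter drives the transgenes, was 308 ± 5.15 FPKM in control mice and 1801 ± 201 in 5XFAD mice. The labels name no batch, but the protocol texts of control and Hdac1 cKO libraries differ from those of the other groups, so that separate handling and the 5XFAD transgenes cannot be told apart. Neighbouring tissue also varied between dissections. The summed level of 5 choroid plexus genes, Ttr among them, ranged from 589 to 20441 FPKM in control mice, from 59.8 to 1631 in Hdac1 cKO mice, from 56.1 to 7990 in 5XFAD mice and from 62.2 to 14048 in compound mice. Its part in the results was not tested. Compound mouse 4 had the highest summed level of the 9 genes of any mouse, 189 FPKM against a median of 119 in its group. Several values of the 9 genes for compound against 5XFAD mice are therefore also given without it. Single genes outside the 9 are given for that comparison with it included.

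The first question was what the 5XFAD transgenes did to these genes, and it can be asked in separate sets of mice, with Hdac1 intact (5XFAD against control) and with Hdac1 deleted (compound against Hdac1 cKO). Both sets carry the same difference in protocol texts, so the second is no check on it. In 5XFAD mice 4 of the 9 genes rose, namely Cx3cr1, Olfml3, Gpr34 and Selplg, and none fell. In the compound mice the same comparison gave 6 rises, the same 4 genes with Siglech and P2ry13. A call means a fold change of at least 1.5 on the log2(FPKM + 1) scale with an unadjusted p under 0.05 in limma, a linear model fitted across all genes. By that rule 1.72% of the 14402 genes tested were called higher in 5XFAD against control mice (2.95% in either direction), and 2.94% of 14195 genes were higher in compound against Hdac1 cKO mice (3.55% in either direction). Tmem119, P2ry12 and Sall1, which include the genes most used to name microglia, passed in neither set. The median log2 difference of the 9 genes was 0.56 in the first set and 0.90 in the second, against -0.01 over all genes tested in each.

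**Figure D1:**
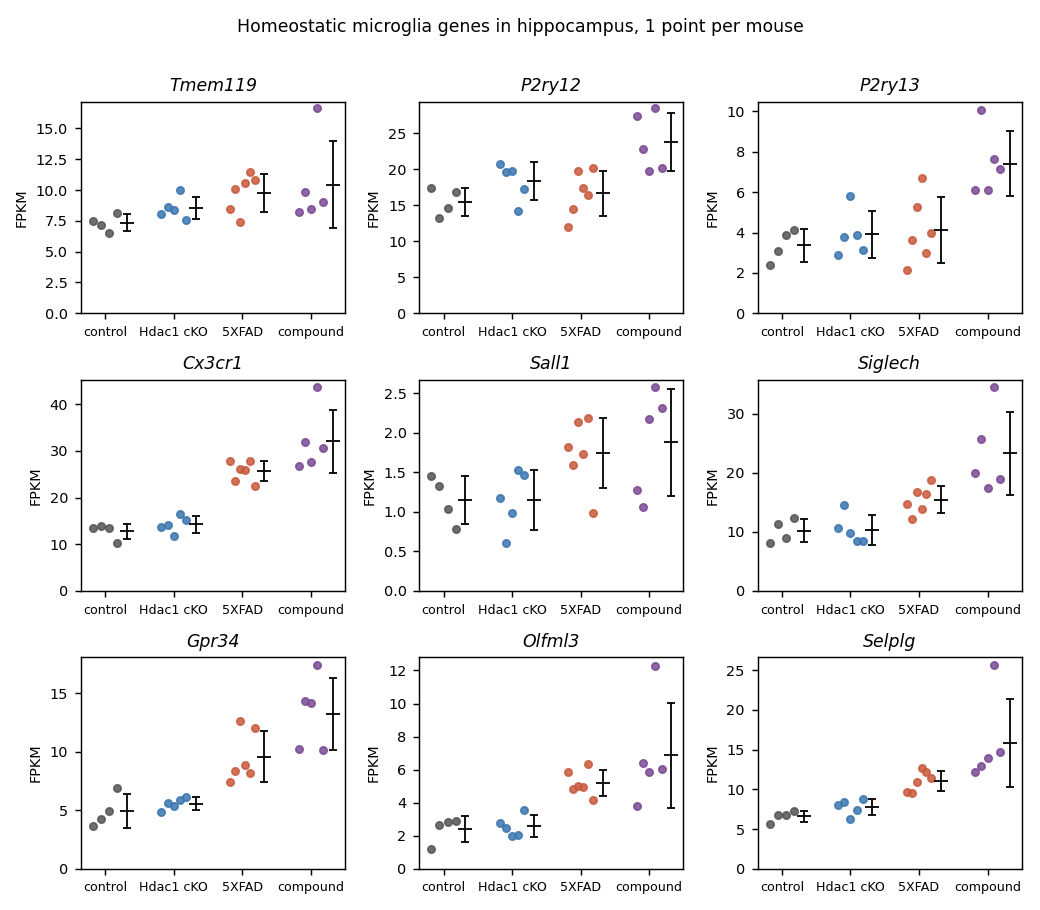
FPKM of the 9 homeostatic microglia genes (1 panel each, vertical axis from 0) in 4 control, 5 Hdac1 cKO, 6 5XFAD and 5 compound mice, with 1 point per mouse and the group mean with its SD to the right of the points. Cx3cr1, Gpr34, Olfml3 and Selplg lie higher in every 5XFAD mouse than in every control mouse, whereas the points of P2ry12, P2ry13, Sall1 and Tmem119 overlap between these groups.

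Cx3cr1 was called higher in both comparisons of mice with and without the transgenes. It encodes the receptor for fractalkine, a chemokine that neurons carry on their surface. Cx3cr1 was 13.4, 13.9, 13.5 and 10.4 FPKM in control mice 1 to 4 and 13.8, 14.2, 11.7, 16.6 and 15.2 in Hdac1 cKO mice 1 to 5. It ran from 22.5 to 27.9 (median 26.0) in 5XFAD mice and was 26.7, 31.8, 27.6, 43.6 and 30.5 in compound mice 1 to 5. No mouse without the transgenes reached the lowest mouse with them. The rise was 1.94-fold in 5XFAD against control mice (log2 difference 0.96, SE 0.11, limma adjusted p = 0.00042) and 2.14-fold in compound against Hdac1 cKO mice (1.10, SE 0.14, adjusted p = 0.000556).

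Gpr34, a receptor of the P2Y-like family that responds to lysophosphatidylserine, rose in both sets as well. It was 3.62, 4.21, 4.97 and 6.91 FPKM in control mice and between 4.81 and 6.15 in Hdac1 cKO mice. In 5XFAD mice it ran from 7.42 to 12.6 (median 8.60), and in compound mice it was 10.3, 14.4, 14.2, 17.4 and 10.1. All mice with the transgenes were above all mice without them. The rise was 1.79-fold in 5XFAD against control mice (log2 0.84, SE 0.18), with a limma adjusted p of 0.0545 and an exact permutation p of 0.00476, the smallest that 4 against 6 mice can give, and 2.13-fold in compound against Hdac1 cKO mice (log2 1.09, SE 0.15, adjusted p = 0.00115).

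Siglech, a sialic acid-binding lectin that signals through the adaptor Tyrobp, stood at the border of the call. It was 8.11, 11.4, 8.996 and 12.4 FPKM in control mice, and 10.6, 14.5, 9.76, 8.39 and 8.44 in Hdac1 cKO mice. The 5XFAD mice ran from 12.2 to 18.7 (median 15.6), and compound mice 1 to 5 were at 19.9, 25.7, 17.4, 34.5 and 18.9. The lowest 5XFAD mouse lay just under the highest control mouse, while every compound mouse lay above every Hdac1 cKO mouse. The 5XFAD against control difference was 1.47-fold (log2 0.56, SE 0.14, limma adjusted p = 0.133, exact permutation p = 0.00952) and fell short of the fold required. Leaving out control mouse 2 or 4, or 5XFAD mouse 2 or 4, brought Siglech over it, with log2 differences of 0.61, 0.65, 0.62 and 0.59, as did a pseudocount of 0.1 (0.60). In compound against Hdac1 cKO mice the rise was 2.12-fold (log2 1.08, SE 0.19, adjusted p = 0.00867).

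The purinergic receptors P2ry12 and P2ry13 were not called in 5XFAD against control mice. P2ry12, through which microglia sense ADP and extend their processes towards damage, was 17.4, 13.2, 14.7 and 16.8 FPKM in control mice and 20.7, 19.7, 19.7, 14.2 and 17.3 in Hdac1 cKO mice. It ran from 11.9 to 20.2 (median 16.9) in 5XFAD mice, and was 27.4, 22.8, 19.8, 28.6 and 20.2 in compound mice. The control values lay within the span of the 5XFAD values. The log2 difference of P2ry12 between them was 0.09 (SE 0.15, 95% confidence interval -0.23 to 0.40, limma adjusted p = 0.871), an interval that leaves room for a change of either sign. Between compound and Hdac1 cKO mice it was 0.35 (SE 0.13, limma adjusted p = 0.337, exact permutation p = 0.0397), short of the fold required.

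P2ry13, the neighbouring ADP receptor gene, was 2.37, 3.07, 3.87 and 4.14 FPKM in control mice and 2.89, 3.78, 5.82, 3.89 and 3.14 in Hdac1 cKO mice. It ran from 2.12 to 6.70 (median 3.81) in 5XFAD mice, and was 6.09, 10.1, 6.13, 7.66 and 7.14 in compound mice. The 5XFAD mice spread from below the lowest to above the highest control mouse, whereas all 5 compound mice exceeded all 5 Hdac1 cKO mice. P2ry13 differed by a log2 of 0.19 (SE 0.23, limma adjusted p = 0.814) in 5XFAD against control mice and rose 1.73-fold in compound against Hdac1 cKO mice (log2 0.79, SE 0.17, adjusted p = 0.0394).

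Sall1, the transcription factor that maintains microglial identity, rested on 16 to 95 fragments per mouse. It was 1.46, 1.33, 1.03 and 0.786 FPKM in control mice and 1.17, 0.605, 0.983, 1.53 and 1.47 in Hdac1 cKO mice. The 5XFAD mice ran from 0.987 to 2.19 (median 1.78), and the compound mice were at 1.27, 1.06, 2.18, 2.58 and 2.32. The groups overlapped in both sets. Sall1 differed by a log2 of 0.34 (SE 0.17, limma adjusted p = 0.503) in 5XFAD against control mice and by 0.41 (SE 0.20, adjusted p = 0.522) in compound against Hdac1 cKO mice, neither passing the call.

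Of the membrane and secreted proteins, Tmem119 is a surface protein of unsettled function that separates microglia from other macrophages. It was 7.53, 7.17, 6.50 and 8.14 FPKM in control mice, and 8.05, 8.66, 8.40, 9.99 and 7.58 in Hdac1 cKO mice. It ran from 7.44 to 11.5 (median 10.3) in 5XFAD mice and was 8.24, 9.81, 8.47, 16.7 and 9.06 in compound mice, where mouse 4 stood apart from the rest. The log2 difference of Tmem119 was 0.36 (SE 0.13, limma adjusted p = 0.339, exact permutation p = 0.0190) in 5XFAD against control mice and 0.22 (SE 0.17, adjusted p = 0.717) in compound against Hdac1 cKO mice, both under the fold required. The second value includes mouse 4. Without it the compound mean was 8.89 ± 0.702 FPKM (n = 4), against 8.54 ± 0.908 in Hdac1 cKO mice.

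Olfml3, a secreted olfactomedin-like glycoprotein, was 1.20, 2.65, 2.84 and 2.86 FPKM in control mice, the lowest value resting on 6 fragments, and 2.79, 2.49, 2.01, 2.04 and 3.57 in Hdac1 cKO mice. It ran from 4.16 to 6.37 (median 4.98) in 5XFAD mice and was 3.78, 6.39, 5.84, 12.2 and 6.03 in compound mice. Mice with and without the transgenes did not overlap. Olfml3 rose 1.86-fold in 5XFAD against control mice (log2 0.90, SE 0.18, limma adjusted p = 0.0352) and 2.10-fold in compound against Hdac1 cKO mice (log2 1.07, SE 0.23, adjusted p = 0.0336).

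Selplg encodes the selectin ligand PSGL-1, a mucin of leukocytes and microglia. It was 5.62, 6.82, 6.77 and 7.23 FPKM in control mice and 8.07, 8.44, 6.28, 7.46 and 8.80 in Hdac1 cKO mice. It ran from 9.59 to 12.6 (median 11.2) in 5XFAD mice and was 12.2, 13.0, 13.9, 25.6 and 14.7 in compound mice. Again the mice with the transgenes were all above those without. Selplg rose 1.58-fold in 5XFAD against control mice (log2 0.66, SE 0.12, limma adjusted p = 0.0175) and 1.86-fold in compound against Hdac1 cKO mice (log2 0.90, SE 0.17, adjusted p = 0.0188).

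In 5XFAD against control mice 4 of 9 genes did not overlap upwards, against 1.92% of all genes tested, and in compound against Hdac1 cKO mice 6 of 9 did not, against 2.44%. Ordered by mean level, 7 genes followed the sequence control, Hdac1 cKO, 5XFAD, compound. P2ry12 was the exception in that its 5XFAD mean (16.7 ± 3.13 FPKM, n = 6) lay below its Hdac1 cKO mean (18.3 ± 2.62, n = 5). For Sall1 the Hdac1 cKO and control means were both 1.15 FPKM. Neighbours in these orders were separated without overlap only between Hdac1 cKO and 5XFAD mice, and only for Cx3cr1, Gpr34, Olfml3 and Selplg. Cx3cr1 had means of 12.8 ± 1.62, 14.3 ± 1.81, 25.6 ± 2.20 and 32.1 ± 6.76 FPKM in that sequence. The Siglech means were 10.2 ± 2.00, 10.3 ± 2.52, 15.5 ± 2.32 and 23.3 ± 6.98, and every neighbouring pair overlapped.

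The promoters of genes on either side of this division are shown because the study asked which sequence motifs mark the promoters of affected genes. They are the 4 genes whose annotated start in GENCODE lay within 6 bases of that in RefSeq. P2ry13 and Sall1 were not called in 5XFAD against control mice, Olfml3 was called higher, and Siglech lay at the border. Each sequence is the 250 bases of the mm9 genome directly before the annotated gene start, written 5′ to 3′ on the strand of the gene, and the capitals mark GAGGAA, the core of the binding site of PU.1 (Spi1), a transcription factor that microglia need. The share of G and C was 41.6% for P2ry13, 56.4% for Sall1, 57.6% for Olfml3 and 51.2% for Siglech. P2ry13 is on chromosome 3 (chr3:59014805-59015054, minus strand), Sall1 on chromosome 8 (chr8:91568062-91568311, minus strand), Olfml3 on chromosome 3 (chr3:103541925-103542174, minus strand) and Siglech on chromosome 7 (chr7:63023298-63023547, plus strand).
P2ry13: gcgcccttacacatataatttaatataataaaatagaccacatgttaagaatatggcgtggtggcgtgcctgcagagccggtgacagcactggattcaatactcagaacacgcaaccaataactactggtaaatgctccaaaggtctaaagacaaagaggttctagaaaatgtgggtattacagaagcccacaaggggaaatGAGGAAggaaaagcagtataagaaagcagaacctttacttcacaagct
Sall1: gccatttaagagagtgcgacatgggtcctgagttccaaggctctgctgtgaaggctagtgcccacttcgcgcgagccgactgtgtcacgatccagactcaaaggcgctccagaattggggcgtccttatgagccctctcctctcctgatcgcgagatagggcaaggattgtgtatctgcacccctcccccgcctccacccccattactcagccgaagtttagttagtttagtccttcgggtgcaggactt
Olfml3: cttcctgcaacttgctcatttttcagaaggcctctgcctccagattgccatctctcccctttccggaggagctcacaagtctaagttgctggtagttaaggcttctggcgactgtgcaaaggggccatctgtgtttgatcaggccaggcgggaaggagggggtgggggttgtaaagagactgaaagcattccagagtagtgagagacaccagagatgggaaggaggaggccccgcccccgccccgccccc
Siglech: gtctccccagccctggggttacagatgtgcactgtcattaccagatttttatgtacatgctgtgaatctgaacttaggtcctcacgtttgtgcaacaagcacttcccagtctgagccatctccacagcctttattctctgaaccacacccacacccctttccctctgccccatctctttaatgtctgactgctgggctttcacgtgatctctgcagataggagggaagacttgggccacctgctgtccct
GAGGAA, searched on both strands, occurred in 1 of the 9 promoters, that of P2ry13, and in 23.0% of the 22367 promoters of the same length. The longer GAGGAAGT occurred in 0 of the 9 and in 2.24% of all. TGANTCA, the AP-1 motif, occurred in the promoter of Tmem119 alone and in 6.00% of all. The absence of a match says only that these letters are not in this window. For Cx3cr1 the GENCODE start was 14 bases from that in RefSeq. For Tmem119, P2ry12, Gpr34 and Selplg no RefSeq start was matched to the window.

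Some of these loci overlap other genes in mm9. P2ry12 (chr3:59020193-59066753) and P2ry13 (chr3:59011818-59014804) both lie on the minus strand inside Med12l, which runs on the plus strand, with an exon of Med12l overlapping P2ry12. Gpr34 (chrX:13209215-13217984, plus strand) lies inside Cask on the opposite strand without exon overlap, and Olfml3 (chr3:103537623-103541924) overlaps the predicted gene Gm16520 on its own strand. Tmem119 (chr5:114243738-114250525) and Selplg (chr5:114267807-114280510) are close neighbours on chromosome 5, both on the minus strand. Whether the authors' quantification used strand is not given in the sources used here. Neither host gene was called. Med12l differed by a log2 of 0.10 (limma adjusted p = 0.878) and Cask by -0.51 (SE 0.36, adjusted p = 0.648) in 5XFAD against control mice, and between compound and Hdac1 cKO mice the values were -0.14 for Med12l and 0.50 for Cask.

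The second question was what deletion of Hdac1 did. Without the transgenes, Hdac1 cKO against control mice gave 0 calls among the 9 genes in limma, and 0 at an unadjusted p under 0.05, where 3.36% of 14265 genes were called. Of the 9, 8 were above 0, with a median log2 difference of 0.16 against -7e-04 over all genes tested. Their summed level was 60.7 to 69.7 FPKM in control mice and 70.0 to 78.1 in Hdac1 cKO mice. The log2 differences of single genes ran from -0.0083 for Sall1 to 0.22 for P2ry12 (95% confidence interval -0.054 to 0.50, limma adjusted p = 0.535). For Siglech the difference was 0.0084 (interval -0.36 to 0.38), for Cx3cr1 0.15 (interval -0.12 to 0.42) and for Tmem119 0.19 (interval -0.054 to 0.44). The choroid plexus genes moved between the same groups, with 5 of 5 called lower in Hdac1 cKO mice, and their part was not tested.

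On the 5XFAD background the 9 genes all had higher means in compound than in 5XFAD mice, with a median log2 difference of 0.43 against -5e-04 over all 14326 genes tested. Without compound mouse 4 the median was 0.26 and 7 of the 9 were above 0, as Tmem119 turned to -0.12 and Sall1 to -0.034, while Olfml3 was at 0.060. P2ry13 was the single member called (1.28% of all genes were, 0.691% upwards). It was 7.42 ± 1.63 FPKM (n = 5) in compound mice against 4.12 ± 1.64 (n = 6) in 5XFAD mice, a 1.69-fold rise (log2 0.76, SE 0.21, exact permutation p = 0.0152). Its limma adjusted p over all genes was 0.673, so the call did not survive correction, and 1 5XFAD mouse (6.70 FPKM) lay among the compound mice (6.09 to 10.1). Of the other genes, 5 had an unadjusted p under 0.05 below the fold required. P2ry12 differed by a log2 of 0.49 (SE 0.14), Siglech by 0.53 (SE 0.16), Selplg by 0.44 (SE 0.16), Gpr34 by 0.43 (SE 0.17) and Cx3cr1 by 0.29 (SE 0.12). Their exact permutation p lay between 0.00433 for Selplg and 0.0455 for Gpr34, and limma's adjusted p between 0.700 for P2ry12 and 0.734 for Cx3cr1. Without compound mouse 4, Cx3cr1 (0.18) and Gpr34 (0.33) no longer had an unadjusted p under 0.05. Selplg fell to 0.26 without that mouse, the median of the 9 there. Siglech passed the fold when compound mouse 3 or 5 was left out (log2 0.62 and 0.59). Tmem119 differed by 0.052 (95% confidence interval -0.31 to 0.41) and Sall1 by 0.053 (interval -0.35 to 0.45). All 9 genes overlapped between these groups, where 0.607% of all genes did not. The choroid plexus genes moved between the same groups, with 0 of 5 called and 0 of 5 above 0 (median -1.90), and their part was not tested.

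The general microglia list moved with these genes between compound and 5XFAD mice, with a median log2 difference of 0.17 over 19 genes and 1 of them called, the Fc receptor gamma chain Fcer1g at 0.60 (SE 0.19, limma adjusted p = 0.711), and with a wider spread. Its mean log2(FPKM + 1) was 4.21 ± 0.13 (n = 6) in 5XFAD mice and 4.40 ± 0.33 (n = 5) in compound mice, where mouse 4 reached 4.86 and mouse 5 was at 4.10. Without mouse 4 the compound mean was 4.29 ± 0.24 (n = 4). In the same 4 mice the means of Tmem119, Cx3cr1, Siglech and Selplg in compound mice were 8.89 ± 0.702, 29.2 ± 2.39, 20.5 ± 3.61 and 13.4 ± 1.09 FPKM, and those of Sall1 and Olfml3 1.71 ± 0.633 and 5.51 ± 1.18 FPKM.

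Whether the 5XFAD effect itself differed with Hdac1 status was tested as an interaction over all 20 mice. The fit gave 0 calls among the 9 genes (4.07% of 14389 genes were called) and 1 gene at an unadjusted p under 0.05. That gene was Siglech, whose rise was larger on the deleted background by a log2 of 0.52 (SE 0.25, limma adjusted p = 0.548). P2ry13 followed at 0.60 (SE 0.30, limma adjusted p = 0.572). Both depended on single mice. Siglech exceeded the fold without control mouse 1 (0.62), Hdac1 cKO mouse 2 (0.64) or compound mouse 3 (0.61), and its unadjusted p rose above 0.05 when any one of 11 other mice was left out, with values down to 0.37 without compound mouse 4. P2ry13 was called without control mouse 1 (0.72), Hdac1 cKO mouse 3 (0.73), 5XFAD mouse 3 (0.67) or 4 (0.73), or compound mouse 1 (0.66) or 3 (0.66). Tmem119 had a value of -0.14 (limma adjusted p = 0.871), which includes compound mouse 4, the mouse that stood apart for this gene.

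Compound mice were also set against control mice, a comparison that shares its mice with those above and is therefore given for its own values only. Here 6 of 9 genes were called higher (4.24% of 14348 genes were called in either direction, 2.22% higher). They were Gpr34 (2.41-fold), Cx3cr1 (2.38-fold), Olfml3 (2.25-fold, limma adjusted p = 0.0964), Selplg (2.15-fold), Siglech (2.13-fold) and P2ry13 (1.93-fold, limma adjusted p = 0.0371). P2ry12 was 1.49-fold higher (log2 0.58, SE 0.14, limma adjusted p = 0.106, exact permutation p = 0.00794), just under the threshold. Leaving out control mouse 1 or 4, or compound mouse 2, 3 or 5, took P2ry12 over it, with log2 differences of 0.63, 0.62, 0.59, 0.64 and 0.63, as did a pseudocount of 0.1 (0.60), median scaling (0.59) and the replicate block (0.63). The choroid plexus and astrocyte genes moved between the same groups, with 3 of 5 choroid plexus genes called lower (median -3.76) and 2 of 6 astrocyte genes called higher, and their part was not tested. Groups did not overlap for 8 of the 9 genes, all but Sall1, where 4.27% of all genes did not overlap.

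**Figure D2:**
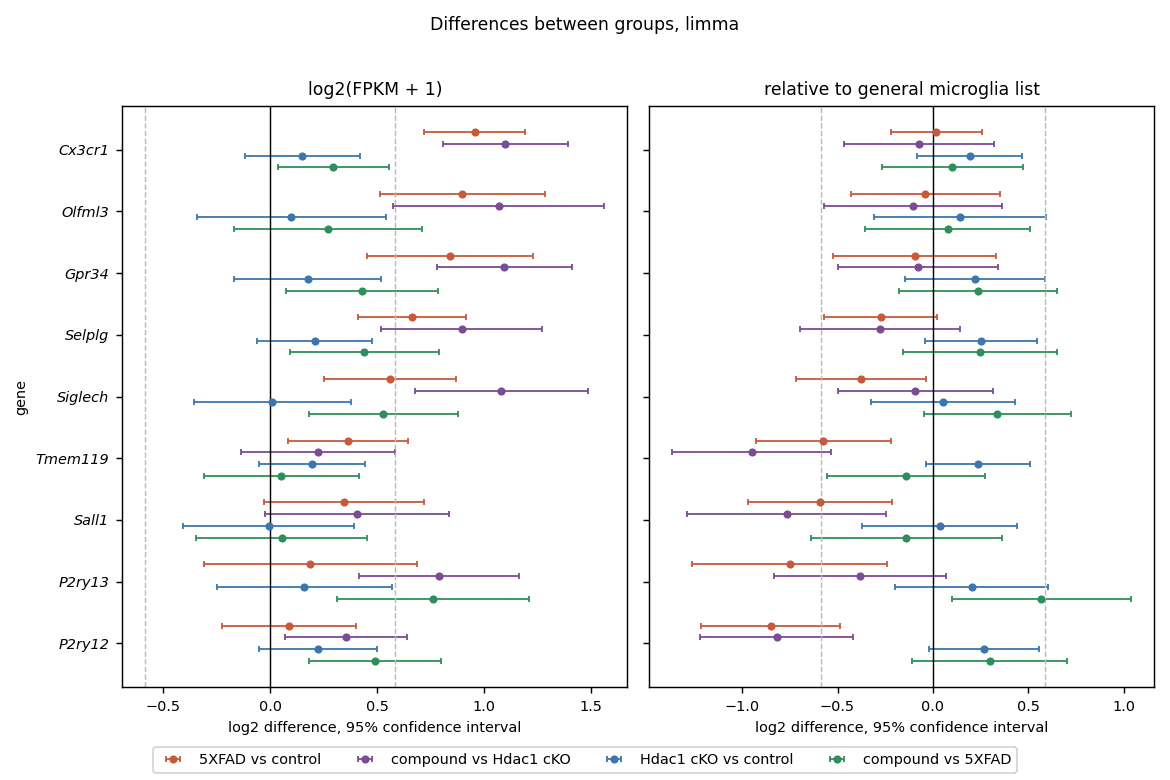
Log2 differences of the 9 genes with 95% confidence intervals from limma in 4 comparisons (colours), on the log2(FPKM + 1) scale at left and relative to the general microglia list at right. The dashed lines mark a fold change of 1.5. At left Cx3cr1, Olfml3, Gpr34 and Selplg lie beyond the line in both 5XFAD comparisons, from 0.66 to 1.10, and at right P2ry12, Sall1 and Tmem119 lie at -0.57 or lower in both, while P2ry13 lies at -0.75 in 5XFAD against control and -0.38 in compound against Hdac1 cKO mice.

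These tissue levels have to be read beside the general rise of microglial RNA. The 19 genes of the general list, among them the ionised calcium-binding protein Aif1, the growth factor receptor Csf1r and the transcription factor Spi1, had a mean log2(FPKM + 1) of 3.27 ± 0.05 (n = 4) in control, 3.23 ± 0.04 (n = 5) in Hdac1 cKO, 4.21 ± 0.13 (n = 6) in 5XFAD and 4.40 ± 0.33 (n = 5) in compound mice. In 5XFAD against control mice 13 of the 19 were called higher, with a median of 0.81. Runx1 and Dock2, not called, passed the filter on low values only through the 5XFAD mice. Without them 13 of 17 were called (median 0.90). Aif1 rose by 0.73 (under the fold at 0.58 without control mouse 4), Csf1r by 1.08 (limma adjusted p = 0.000168) and Spi1 by 0.81. Over the 17 genes left, the range ran from 0.27 for Coro1a, which was not called, to 1.83 for the lymphocyte antigen Ly86. In compound against Hdac1 cKO mice 15 of 18 were called, with a median of 1.33, Aif1 at 1.12, Csf1r at 1.01 and Spi1 at 1.37. Here Dock2, not called, passed the filter only through the compound mice, and without it 15 of 17 were called (median 1.37).

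Each gene was therefore also fitted after subtracting the mean log2 value of the general list in the same mouse. On this relative scale a gene that does not follow microglial RNA at all falls by construction. The median over all genes was -0.95 in 5XFAD against control mice and -1.18 in compound against Hdac1 cKO mice, and 91.4% and 94.4% of all genes were called. In the relative fits a count of calls, groups that do not overlap downwards or a small adjusted p therefore carry no weight by themselves. The share of all genes without overlap on this scale is not given here. The values are of use for ranking the 9 genes against other microglial genes. Cx3cr1 (0.018, SE 0.11), Olfml3 (-0.039, SE 0.18) and Gpr34 (-0.10, SE 0.20) kept pace with the general list in 5XFAD against control mice within their errors. Selplg (-0.27, SE 0.14) and Siglech (-0.38, SE 0.16) were lower without passing the fold.

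P2ry12, P2ry13 and Sall1 passed it downwards, 3 of the 9. Sall1 averaged 10.9 FPKM in GFAP+ control nuclei and 1.15 in control hippocampus, by different library methods. How much of its hippocampal RNA is microglial was not tested. The relative value of P2ry12 was 0.94, 0.53, 0.65 and 0.95 in control mice and ran from -0.66 to 0.32 (median -0.07) in 5XFAD mice. No 5XFAD mouse reached the lowest control mouse, and the difference was -0.85 (SE 0.17, limma adjusted p = 0.000307), near the median of all genes. For P2ry13 the values were -1.51, -1.27, -1.04 and -0.84 in control mice and -2.71 to -1.33 (median -1.79) in 5XFAD mice. These overlapped, with a difference of -0.75 (SE 0.24, adjusted p = 0.00801). Sall1 was at -1.96, -2.08, -2.30 and -2.37 in control mice and at -3.10 to -2.55 (median -2.74) in 5XFAD mice. The groups did not overlap, and the difference was -0.59 (SE 0.18, adjusted p = 0.00519), which lost the call when control mouse 1 or 2, or 5XFAD mouse 1, 4 or 6, was left out (-0.52, -0.56, -0.58, -0.58 and -0.53), and also with the replicate number as a block (-0.57) or a pseudocount of 0.1 (-0.54). Tmem119 was at -0.17, -0.27, -0.41 and -0.01 in control mice and at -1.21 to -0.53 (median -0.67) in 5XFAD mice. Every 5XFAD mouse was below every control mouse, and the difference of -0.57 (SE 0.17, adjusted p = 0.0044) stood just inside the fold limit, which it passed without control mouse 2 (-0.59) or 3 (-0.64), or without 5XFAD mouse 2 (-0.62), 5 (-0.61) or 6 (-0.63), and with the block (-0.69) or the pseudocount of 0.1 (-0.69).

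**Figure D3:**
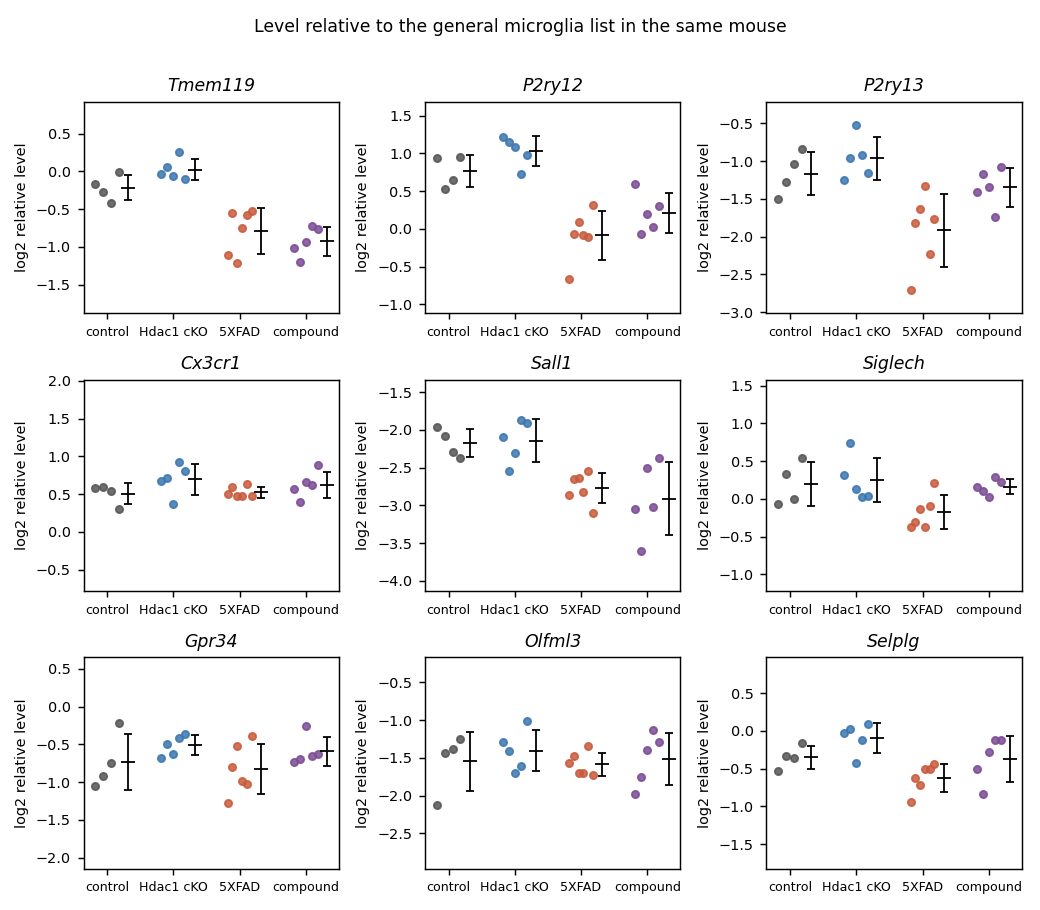
Log2(FPKM + 1) of the 9 genes minus the mean of the general microglia list in the same mouse (vertical axis), with 1 point per mouse in the 4 groups and the group mean with its SD. P2ry12 and Tmem119 are lower in every 5XFAD mouse than in every control mouse, while Cx3cr1, Gpr34 and Olfml3 overlap across all 4 groups. The scaling by itself moves most genes down in 5XFAD against control mice (median over all genes -0.95).

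The choice of reference bears on these calls. With the 6 core genes Aif1, Csf1r, Itgam, Ptprc, Spi1 and Irf8 in place of the 19, Sall1 stood at -0.44, inside the fold. With a shortened list that leaves out the complement C1q genes, Ctss, Fcer1g and Ly86, P2ry13 was at -0.49 and Sall1 at -0.33, and P2ry12 alone was still called. For compound against Hdac1 cKO mice the relative fit gave 3 downward calls, Tmem119 (-0.95, SE 0.21, limma adjusted p = 4.22e-05), P2ry12 (-0.82, SE 0.20, adjusted p = 0.000174) and Sall1 (-0.77, SE 0.26, adjusted p = 0.00509), while P2ry13 was at -0.38 (95% confidence interval -0.83 to 0.066). Under the shortened list Tmem119 alone was left. The other 5 genes lay between -0.28 for Selplg and -0.073 for Cx3cr1. In compound against control mice 2 genes were called lower (94.5% of all genes were called), Tmem119 at -0.71 (SE 0.25) and Sall1 at -0.73 (SE 0.30), and neither was with the core or the shortened list. Sall1 also lost the call without compound mouse 2 (-0.56) and with a pseudocount of 0.1 (-0.69). P2ry12 gained it with that pseudocount (-0.70), without control mouse 2 (-0.63) or 3 (-0.59), and without compound mouse 1 (-0.65). Between compound and 5XFAD mice the relative fit called 0 of the 9 genes (2.54% of all), with 1 at an unadjusted p under 0.05 in limma, P2ry13 at 0.57 (SE 0.23, adjusted p = 0.676). P2ry13 was called without 5XFAD mouse 2 (0.59), 3 (0.62), 4 (0.69) or 6 (0.60), or without compound mouse 4 (0.67). Between Hdac1 cKO and control mice it called 0 of 9 (3.04% of all), with 0 at an unadjusted p under 0.05. All 9 were above 0 there, with a median of 0.20 against 0.043 over all genes.

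The composition of the 9 genes shifted accordingly. Their summed level was 64.3 ± 3.81 FPKM in control, 72.5 ± 3.32 in Hdac1 cKO, 99.3 ± 7.93 in 5XFAD and 135 ± 31.1 in compound mice (121 ± 9.19 without mouse 4). P2ry12 made up 24.2% ± 3.31 of that sum in control mice and 16.7% ± 2.14 in 5XFAD mice, whose highest value, 19.2%, was below the lowest control value of 20.7%. In compound mice it made up 15.1% to 23.7%, which overlapped the 20.3% to 28.4% of Hdac1 cKO mice. Tmem119 made up 11.8% ± 1.47 in Hdac1 cKO mice and 7.63% ± 0.695 in compound mice, where the highest value was 8.83% against a lowest of 10.6%. Its shares in control (10.3% to 12.4%) and 5XFAD mice (7.03% to 11.4%) overlapped. The share of Cx3cr1 was 20.03% ± 3.44 in control and 26.0% ± 3.12 in 5XFAD mice, and the groups overlapped (up to 22.1% and from 21.5%). Hdac1 cKO (16.7% to 23.7%) and compound mice (23.1% to 25.6%) overlapped as well. FPKM divides by transcript length although these libraries cover only transcript ends, so a share is comparable between groups for 1 gene but not between genes.

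Other genes known from homeostatic microglia ran from -0.72 to 1.28 in 5XFAD against control mice, where the 9 ran from 0.087 to 0.96. Of 19 tested, 6 were called higher in 5XFAD against control mice, with a median log2 difference of 0.26. The organic anion transporter Slco2b1 rose by 0.75 (SE 0.16), protein S (Pros1) by 0.74 (SE 0.17) and the Fc receptor-like Fcrls by 1.28 (SE 0.20, limma adjusted p = 0.00615), whereas Ltc4s, the leukotriene C4 synthase, had the lowest value at -0.72 (SE 0.82). The second set gave 6 higher and 1 lower, with a median of 0.46. Slco2b1 rose by 0.83 and Pros1 by 0.79, the crystallin Crybb1 fell by 0.64 (SE 0.25, limma adjusted p = 0.361) and Fcrls was at 0.22 (SE 0.43). The genes of disease-associated microglia had higher medians than these lists, though not each gene did. Of 12, 11 were called higher in 5XFAD against control mice (median 1.44) and 12 in compound against Hdac1 cKO mice (median 2.29). These counts hold genes that passed the filter on low values only through the mice with the transgenes, the integrin Itgax in both and the lectin Clec7a in the latter. Without them 10 of 11 (median 1.45) and 10 of 10 (median 2.29) were called. The protease inhibitor Cst7 rose by 5.71 and 6.18 in these comparisons and the lipid receptor Trem2 by 2.35 and 2.44. Axl, a receptor tyrosine kinase, was the lowest of them at 0.48 (SE 0.13) in 5XFAD against control mice, under the fold.

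**Figure D4:**
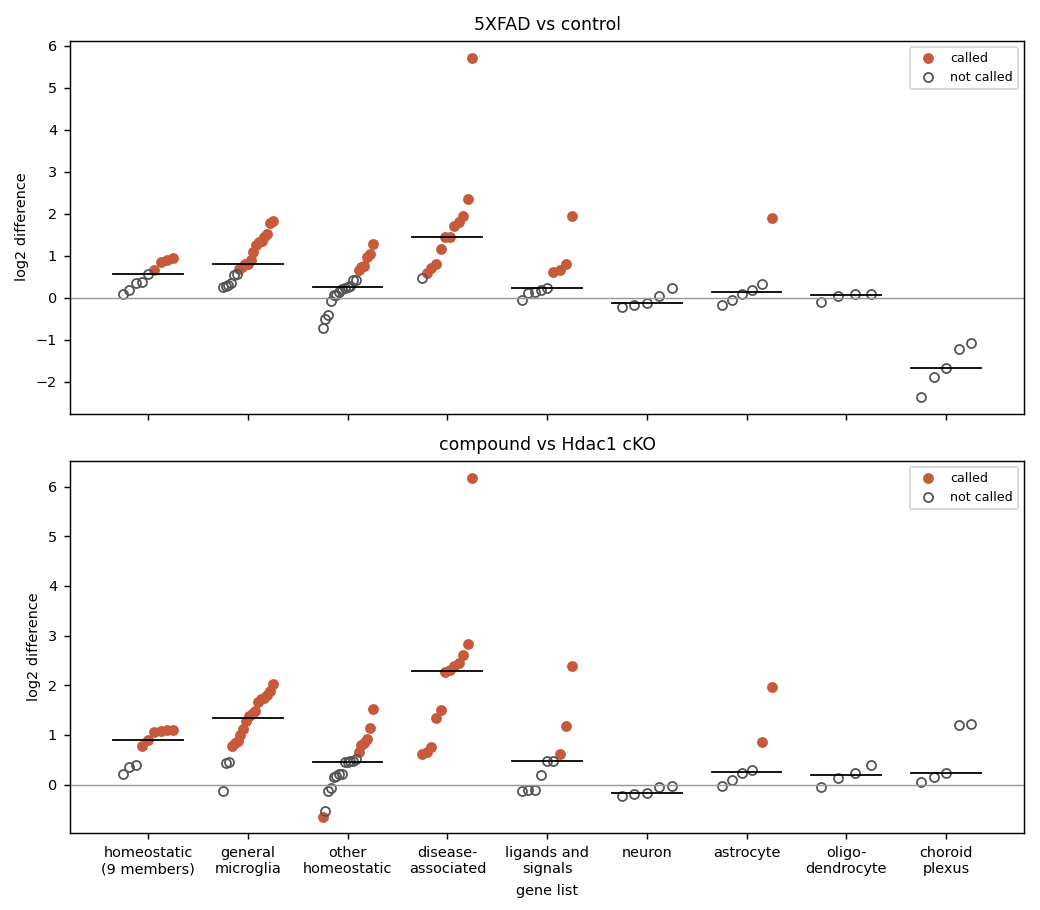
Log2 difference on the log2(FPKM + 1) scale (vertical axis) of each tested gene, 1 point per gene, in 9 gene lists (horizontal axis), for 5XFAD against control mice (top) and compound against Hdac1 cKO mice (bottom). Filled points were called, and each line is the median of its list. The medians of the 9 genes, 0.56 and 0.90, lie below those of the general list, 0.81 and 1.33, and of the disease-associated genes, 1.44 and 2.29.

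A list of ligands and signalling genes was read beside the 9 genes. It also holds receptors and ligands of receptors outside the 9. Csf1, Tyrobp, Tgfbr1 and Entpd1 are in the other homeostatic or disease-associated lists as well. Of the genes on it, 4 of 9 tested were called higher in 5XFAD against control mice and 3 of 9 in compound against Hdac1 cKO mice. Cx3cl1, the fractalkine that binds Cx3cr1, differed by 0.13 (limma adjusted p = 0.716) and -0.10 (adjusted p = 0.815). Il34, the neuronal ligand of Csf1r, differed by -0.049 and -0.13. Csf1, the other ligand of Csf1r, rose by 0.80 and 0.61, the latter lost without Hdac1 cKO mouse 4 (0.57) or compound mouse 4 (0.51). The transforming growth factor beta receptor Tgfbr2 rose by 0.62 and 1.19, and Tgfbr1 rose by 0.66 in 5XFAD against control mice and was at 0.47 (SE 0.19) in compound against Hdac1 cKO mice. Its first value lost the call without control mouse 1 (0.56), and its second gained one without compound mouse 1 (0.60). Tyrobp, the adaptor of Siglech, rose by 1.94 and 2.40 and was itself higher in compound than in 5XFAD mice by 0.62 (SE 0.21, limma adjusted p = 0.718). Tgfb1 and Selp, which encodes a selectin that the Selplg product binds, were too low to be tested. Of the related receptors, 5 of 11 were high enough to test, and 1 was called in 5XFAD against control mice, the oxysterol receptor Gpr183 (0.77, limma adjusted p = 0.057). Against Hdac1 cKO mice, compound mice had 3 of 5 called, Gpr183 (0.79), the UDP receptor P2ry6 (0.62, limma adjusted p = 0.201) and the ATP-gated channel P2rx4 (0.72, adjusted p = 0.114).

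Markers of other cells were examined beside these genes. The summed level of 10 border macrophage and leukocyte genes was between 11.2 and 32.9 FPKM in control, 8.64 and 21.2 in Hdac1 cKO, 6.31 and 34.3 in 5XFAD and 12.8 and 24.1 in compound mice. Of those tested, limma called 0 of 5 in 5XFAD against control mice (0 at an unadjusted p under 0.05). Cd163 and Ly6c2 among them passed the filter on low values only through the 5XFAD mice, and 0 of the other 3 were called. In compound against Hdac1 cKO mice 1 of 5, Ms4a7 (0.84, SE 0.35, limma adjusted p = 0.410), was called higher. There Ms4a7 and Cd163 passed the filter only through the compound mice, and 0 of the other 3 were called. Cd3e, which defines T cells, was listed at 0 in every control and Hdac1 cKO mouse, in 4 of 6 5XFAD mice (highest 0.552 FPKM) and in 4 of 5 compound mice (highest 0.111 FPKM). Of 6 astrocyte genes, 1 was called in 5XFAD against control mice, Gfap (1.90), while the others lay between -0.17 for Gja1 and 0.32 for Aqp4. In compound against Hdac1 cKO mice 2 of 6 were called, Gfap (1.97) and the water channel Aqp4 (0.86, SE 0.14, limma adjusted p = 0.0068). Aqp4 was also the 1 of 6 called between compound and 5XFAD mice (0.91, SE 0.17, adjusted p = 0.234), at 56.4 ± 14.6 against 29.4 ± 7.18 FPKM, and so moved with the 9 genes there. Its part in their values was not tested. Among neuronal genes 0 of 5 were called by limma in 5XFAD against control or compound against Hdac1 cKO mice, with 2, Rbfox3 and Camk2a, at an unadjusted p under 0.05 in the latter.

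Within groups, as deviations from the group mean over the 20 mice, the 9 genes varied together to different degrees. The correlation of each gene with the mean of the other 8 was 0.87 for Selplg, 0.63 for Olfml3, 0.62 for Tmem119, 0.59 for Siglech, 0.57 for Gpr34 and 0.46 for Cx3cr1, and lower for P2ry12 (0.26), P2ry13 (0.18) and Sall1 (0.036). Without compound mouse 4, with deviations taken from the means of the mice kept, the values were 0.62 for Selplg, 0.47 for Gpr34, between 0.22 and 0.28 for Olfml3, Siglech and P2ry13, 0.025 for Tmem119, -0.013 for P2ry12, -0.14 for Cx3cr1 and -0.40 for Sall1. With the mean of the general list the correlation was 0.67 for Cx3cr1, 0.60 for Siglech and 0.59 for Olfml3, and 0.38, 0.34 and 0.22 without that mouse. Without it the correlation turned from 0.52 to -0.13 for Selplg, from 0.50 to -0.12 for Tmem119 and from 0.11 to -0.21 for Sall1. These correlations are descriptions, and the measures share the library and its depth. The genes whose deviations were most like the mean of the 9 were led by the microRNA genes Mir411, Mir6336 and Mir1907 (r = 0.83 each), which in the hippocampus were above 0 in compound mouse 4 only. Dhrs1 and Tyrobp (r = 0.81 each) followed, then Zfp426, Sparc, Nmral1, Kcnj10 and Cacng8. These 10 genes were chosen with compound mouse 4 included. Without it, Tyrobp had an r of 0.69, Dhrs1 0.37 and Nmral1 0.54.

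In GFAP+ cortical nuclei, an astrocyte-enriched sort, the same genes give a reading of what is not confined to microglia. Sall1 was 11.5, 11.4 and 9.95 FPKM in the control nuclei and 9.26, 9.41, 15.1 and 11.5 in the Hdac1 cKO nuclei, whereas P2ry12 was 6.22, 5.42 and 2.49 in control and 2.22, 1.60, 3.81 and 8.24 in Hdac1 cKO nuclei. Tmem119 spread from 1.35 to 11.6 over these 7 libraries. Hippocampal tissue, by another library method, held 0.605 to 2.58 FPKM of Sall1 and 11.9 to 28.6 of P2ry12, so in the sorted nuclei Sall1 stood above and P2ry12 below every hippocampal library. Olfml3 ran from 2.22 to 8.58 FPKM in control nuclei against 1.20 to 2.86 in control hippocampus, and Selplg from 2.43 to 10.6 against 5.62 to 7.23. Siglech and Tmem119 overlapped between these groups too, whereas Cx3cr1, Gpr34 and P2ry13 were lower in all control nuclei. The values come from different library methods, tissues and quantifications, and no test was made between them. The general microglia list summed to between 55.9 and 200 FPKM in these nuclei and to between 419 and 2230 FPKM in hippocampus.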

How the data were processed

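Hippocampal RNA of 20 mice and GFAP+ cortical nuclei of 7 mice were analysed. Per the labels and the study's methods, the authors made 3′ digital gene expression libraries from hippocampus, aligned them to mm9 with TopHat and computed the deposited FPKM values with Cufflinks 2.0.0. The nuclei were prepared with SMART-Seq, and their quantification is not given in the sources used here. FPKM divides by transcript length although reads of these hippocampal libraries come from transcript ends. The 6 ChIP samples and 1 sample of GFAP+ control nuclei were not analysed here.

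Genes averaging under 0.5 FPKM in the mice compared were dropped, and log2(FPKM + 1) was fitted with limma 3.58.1 (trend and robust moderation) in R 4.3.3, using only the groups compared, or all 4 groups for the interaction. A gene was called when its fold reached 1.5 and its unadjusted limma p was below 0.05, limits taken from the study's methods, and Benjamini-Hochberg adjusted p are given over all genes tested. Fold changes on this scale understate those of low genes. For single values a 2-sided exact permutation test on the same scale is also given. The relative fit subtracts the mean of the general microglia list in each mouse. Each library is a separately numbered mouse. Depth is known only relatively, from the steps between low values, which gave whole fragments within 0.05 for all 9 genes. The fits were tested on simulated data with 200 genes changed by 1.5 on the log2 scale. Descriptions used Python 3.11.15, pandas 2.3.3 and numpy 2.4.6, figures matplotlib 3.10.9 and sequences pysam 0.24.0. The 9 genes and the lists were chosen with earlier results of these data known. Besides the 9 genes, the text names genes of those lists, the 10 genes most like the 9 in within-group deviation, and overlapping genes. The alternatives changed the pseudocount, the filter, the scaling, the moderation, the call, a replicate block, the reference list and the mice included. Some genes of these lists enter the counts and are not reported here by name.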

Additional observations from a re-analysis of the deposited data

Results flagged for a closer look

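Single mice stood apart from the rest of their group in 4 of the 36 combinations of gene and group tested by Dixon's criterion, which chance alone passes about 1 time in 20. Tmem119 was 16.7 FPKM in compound mouse 4, the highest of 5, and Selplg was 25.6 FPKM in the same mouse. Cx3cr1 was 10.4 FPKM in control mouse 4, the lowest of 4. Olfml3 was 1.20 FPKM in control mouse 1, the lowest of 4, a value that rests on 6 fragments. The 5XFAD effect on Siglech differed with Hdac1 deletion by a log2 of 0.52 in limma's interaction test, with an unadjusted p under 0.05 that did not pass adjustment over all genes (limma adjusted p = 0.548).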

How the results depend on the processing

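The limits of these data are the number of mice, a reference list that itself contains genes of plaque-associated microglia, low fragment numbers for Sall1 and Olfml3, and protocol texts that differ between mice with and without the transgenes. Of 869 values of named genes under other settings, 825 kept direction and call, 13 lost the call, 11 gained it and 20 changed sign. Of 1177 values with 1 mouse left out, 1102 kept both, 10 lost the call, 34 gained it and 31 changed sign. The cause of these changes was not tested.

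Sall1 in Hdac1 cKO against control mice turned to 0.065 with quantile normalization and 0.013 with median scaling, and in compound against 5XFAD mice to -0.037 with the replicate block. In the relative fit of 5XFAD against control mice, a pseudocount of 0.1 gave -0.084 for Cx3cr1 and 0.065 for Olfml3, the core list gave 0.061 for Gpr34 and 0.12 for Olfml3, and the shortened list gave 0.16 and 0.22. In compound against control mice P2ry13 turned to 0.017 with the core and 0.13 with the shortened list. In compound against Hdac1 cKO mice the core list gave 0.050 for Cx3cr1, 0.031 for Siglech, 0.043 for Gpr34 and 0.019 for Olfml3, and the shortened list gave 0.22, 0.20, 0.21 and 0.19, and 0.017 for Selplg.

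The number of the 9 genes called in compound against 5XFAD mice fell from 1 to 0 when adjusted p decided. In the relative fits it went from 3 to 5 by adjusted p and to 1 with the shortened list in 5XFAD against control mice, from 2 to 0 with either list in compound against control mice, from 3 to 1 with the shortened list in compound against Hdac1 cKO mice, and from 0 to 1 in compound against 5XFAD mice with a pseudocount of 0.1, the replicate block or either list.

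With 1 mouse left out, the number called ranged from 1 to 2 in compound against 5XFAD mice and from 0 to 2 in the interaction. In the relative fits it ranged from 1 to 3 in compound against control mice and from 0 to 1 in compound against 5XFAD mice. Ranges that spanned 0 were -0.11 to 0.057 for Il34 in 5XFAD against control mice, and -0.094 to 0.093 for Sall1, -0.11 to 0.0995 for Siglech and -0.097 to 0.17 for Olfml3 in Hdac1 cKO against control mice. They were -0.12 to 0.12 for Tmem119 and -0.037 to 0.17 for Sall1 in compound against 5XFAD mice, -0.10 to 0.37 for Fcrls in compound against Hdac1 cKO mice, and -0.040 to 0.17 for Sall1 and -0.039 to 0.37 for Olfml3 in the interaction. In the relative fits they were -0.050 to 0.048 for Cx3cr1, -0.20 to 0.075 for Gpr34 and -0.23 to 0.059 for Olfml3 in 5XFAD against control mice, and -0.15 to 0.031 for Siglech and -0.20 to 0.012 for Olfml3 in compound against Hdac1 cKO mice.

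The deviations of same-numbered mice of different groups correlated at -0.12 to 0.078, under the 0.1 required of every pair, so the numbers were not taken to pair them. The replicate block gave 4 calls in 5XFAD against control mice, 0 in Hdac1 cKO against control mice, 7 in compound against control mice with P2ry12 added (0.63), 1 in compound against 5XFAD mice and 6 in compound against Hdac1 cKO mice. In the relative fits the block left the number at 3 in 5XFAD against control mice while Sall1 lost the call (-0.57) and Tmem119 gained it (-0.69), and gave 0 in Hdac1 cKO against control, 2 in compound against control, 1 in compound against 5XFAD and 3 in compound against Hdac1 cKO mice.

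Over all genes, a pseudocount of 0.1 took the number called from 425 to 641 in 5XFAD against control mice and from 184 to 325 in compound against 5XFAD mice, and in the relative fits from 433 to 657 in Hdac1 cKO against control mice and from 364 to 610 in compound against 5XFAD mice. Calling by adjusted p alone left 102 genes in 5XFAD against control mice, 22 against 480 in Hdac1 cKO against control mice, 95 against 608 in compound against control mice, 1 in compound against 5XFAD mice, 211 against 504 in compound against Hdac1 cKO mice and 0 against 586 in the interaction. In the relative fits it left 15 in Hdac1 cKO against control mice and 1 in compound against 5XFAD mice.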
